A study of Rattus norvegicus with 12 samples.

Results

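The circadian clock genes Per1, Per2, Per3, Dbp, Nr1d1, Nr1d2, Tef, Cry1, Clock and Bhlhe40 were followed in the kidneys of 12 male Zucker rats, with 1 array per rat. Every probe set annotated to 1 of these 10 symbols was taken, which gave 19 of the 31042 probe sets on the array that are not controls, for 10 of 14217 named genes. The groups, of 3 rats each, were obese rats given rosiglitazone, obese rats on the control diet, lean rats given rosiglitazone and lean rats on the control diet. Rosiglitazone, an agonist of the nuclear receptor PPARgamma, was mixed into the ground chow at 3 mg/kg body weight, the control diet was the chow alone, and feeding lasted 12 weeks. Obese Zucker rats are known to lack a working leptin receptor in the whole body, so obesity, appetite and blood lipids differ from lean rats throughout life. The labels describe the rats as a diabetes model and give no age. No sampling hour for the rats was found in the sources used here. The questions were whether the clock genes differed with obesity or with the drug, and how far rats of the same group differed from each other.

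The mammalian clock is a loop of transcription factors that turns once a day in almost every cell, kidney cells included. CLOCK and BMAL1 bind E-box sequences together and switch on the Per and Cry genes, whose proteins then block CLOCK and BMAL1. The same pair switches on Nr1d1 and Nr1d2, which encode the nuclear receptors REV-ERBalpha and REV-ERBbeta. These repress Bmal1 and Cry1 through ROR elements. Dbp and Tef encode activators of the PAR bZIP family that bind D-boxes, for example in the Per genes, and Nfil3 encodes a repressor that binds there too. Bhlhe40 and its paralog Bhlhe41 encode repressors that bind E-boxes. In kidney, clock output is known to reach sodium, water and organic anion transport. Because Dbp and Nr1d1 reach their peaks at different hours from Bmal1 and Cry1, rats sampled at different hours differ in these genes, and Clock itself usually cycles little.

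Promoters show which of these elements stand near the starts of the genes. RefSeq promoters (GRCr8; 250 bases before the start to 50 after it) were given for 9 of the 10 genes, in 11 stretches. The E-box CACGTG was found in 3 of the 11, belonging to Tef, Bhlhe40 and the second listed start of Nr1d1, and in 6.42% of 33469 rat promoters of the same length. A D-box, searched as TTATGTAA, TTATGCAA or TTACGTAA on both strands, was found in 1, that of Per2, and in 1.85% of rat promoters. A ROR element, searched as TAGGTCA or TGGGTCA on both strands, was found in 0 of the 11 and in 6.6% of rat promoters, and it was found in the promoter of Bmal1. The letters were not found in the listed window of Dbp. The stretches below are shown as examples of each element in genes that the results turn on, 5′ to 3′ on the strand of the gene, with the match in capitals. Tef lies at chr7:115206577-115206876 on the plus strand with its E-box 198 bases before the start. The second Nr1d1 start lies at chr10:84229405-84229704 on the minus strand with its E-box 191 bases before the start. Bhlhe41, the gene most like Dbp over these rats, lies at chr4:180569306-180569605 on the minus strand with its E-box 48 bases before the start. Per2 lies at chr9:99496944-99497243 on the minus strand with its D-box 192 bases before the start. Bmal1 lies at chr1:176766078-176766377 on the plus strand with its ROR element 16 bases before the start.
Tef: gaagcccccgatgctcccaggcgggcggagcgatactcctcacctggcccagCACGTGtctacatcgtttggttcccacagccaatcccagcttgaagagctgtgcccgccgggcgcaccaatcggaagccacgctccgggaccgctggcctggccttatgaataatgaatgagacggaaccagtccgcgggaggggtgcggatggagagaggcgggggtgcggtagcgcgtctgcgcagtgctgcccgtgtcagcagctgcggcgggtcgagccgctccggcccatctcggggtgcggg
Nr1d1: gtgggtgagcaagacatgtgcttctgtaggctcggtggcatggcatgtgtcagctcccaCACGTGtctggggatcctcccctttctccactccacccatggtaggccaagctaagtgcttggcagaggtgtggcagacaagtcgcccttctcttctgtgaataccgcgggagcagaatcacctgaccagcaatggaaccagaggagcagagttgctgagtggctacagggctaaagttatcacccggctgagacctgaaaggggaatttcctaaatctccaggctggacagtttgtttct
Bhlhe41: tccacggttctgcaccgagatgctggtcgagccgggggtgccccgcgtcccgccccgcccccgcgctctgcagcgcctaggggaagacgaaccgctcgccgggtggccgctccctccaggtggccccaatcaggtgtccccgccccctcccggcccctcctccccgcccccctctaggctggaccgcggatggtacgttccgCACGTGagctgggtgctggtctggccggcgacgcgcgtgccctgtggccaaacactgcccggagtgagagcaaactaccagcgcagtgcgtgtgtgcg
Per2: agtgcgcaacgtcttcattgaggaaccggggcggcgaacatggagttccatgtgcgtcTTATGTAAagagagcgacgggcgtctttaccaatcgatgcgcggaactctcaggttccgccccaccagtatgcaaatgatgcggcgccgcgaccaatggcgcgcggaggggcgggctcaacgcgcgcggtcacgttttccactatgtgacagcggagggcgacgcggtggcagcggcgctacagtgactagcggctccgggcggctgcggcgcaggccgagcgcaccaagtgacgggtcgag
Bmal1: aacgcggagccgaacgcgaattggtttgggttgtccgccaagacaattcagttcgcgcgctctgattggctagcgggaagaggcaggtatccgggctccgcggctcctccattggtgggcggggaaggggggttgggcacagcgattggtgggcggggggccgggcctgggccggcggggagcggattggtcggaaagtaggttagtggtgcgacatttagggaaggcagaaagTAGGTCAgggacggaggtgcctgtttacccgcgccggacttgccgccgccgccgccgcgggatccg

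Values are MAS5 signals on a linear scale, and tests ran on log2(signal + 16), so a log2 change slightly understates that of a dim gene. Of the 19 probe sets, 15 passed the filter on dim probe sets (a signal of about 144), with at least 1 for each gene. The 4 that did not, for Per2, Per3 and Clock, had signals of 17.7 to 242.4. The brightest probe set stands for each gene below. The tissue was checked on kidney markers: 7 of the 8 listed were on the array and passed, and their summed signal was 62344 to 78497 over the rats. Fat markers summed to 4380 to 5547 in obese rosiglitazone kidneys, 1363 to 1901 in obese control kidneys, 8896 to 19051 in lean rosiglitazone kidneys and 3313 to 5855 in lean control kidneys. Adrenal markers summed to 385 to 673, with Cyp11b1 at 8.3 to 59.2. Lean rosiglitazone 3 was least like its own group, with a median correlation of 0.953 against 0.96 to 0.977 for the other arrays. All lean arrays, at 0.953 to 0.964, were less like their own group than all obese arrays, at 0.968 to 0.977. The cre hybridisation spike-in read 14969 to 16148 on 5 arrays and 10686 to 12416 on 7. The 5 higher arrays were 0 of 3 from obese rosiglitazone, 1 of 3 from obese control, 2 of 3 from lean rosiglitazone and 2 of 3 from lean control rats, so values with this class are given beside the results it touches. In whole kidney, fewer cells of a type and less RNA per cell cannot be told apart.

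No clock gene passed the test in any comparison. With limma at an adjusted p under 0.05 (Benjamini-Hochberg over 18625 probe sets), 0 of the 15 clock probe sets differed between obese and lean rats on rosiglitazone, where 5% of all probe sets were called, and 0 on the control diet, where 4.74% were. At an unadjusted p under 0.05 there were 3 of 15 on rosiglitazone (19.7% of all probe sets) and 1 of 15 on the control diet (18.9%). With both diets together 0 of 15 passed, against 14.3% of all, and 3 of 15 had an unadjusted p under 0.05, against 28.1%. For the drug, 0 of 15 passed in obese rats (0.0698% of all), 0 in lean rats (0.00537%) and 0 over both body types (0.0591%). Unadjusted p was under 0.05 for 2 of 15 in obese rats (4.92% of all), 0 in lean rats (4.79%) and 0 over both body types (5.08%). The test of whether the drug effect differed with body type called 0 of 15 and 0% of all, with 2 of 15 at an unadjusted p under 0.05 (4.31% of all). The median log2 change of the clock probe sets was 0.14 for obese against lean on rosiglitazone (0.02 over all), 0 on the control diet (0.03 over all), 0.13 for the drug in obese rats (0 over all) and -0.01 in lean rats (0 over all).

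**Figure D1:**
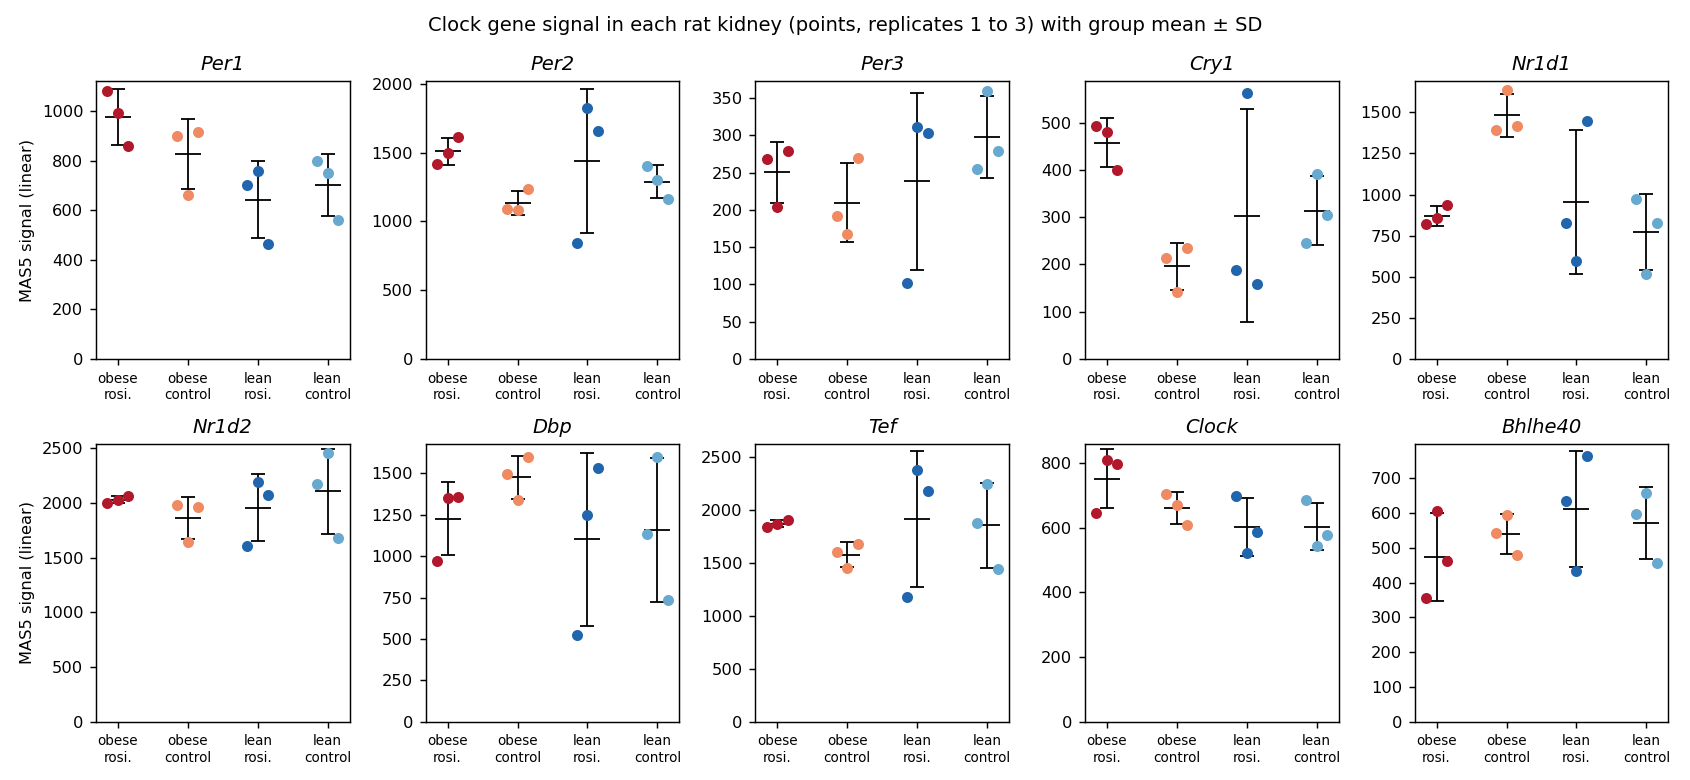
MAS5 signal (linear, from 0) of the brightest probe set of each of the 10 clock genes in obese rosiglitazone, obese control, lean rosiglitazone and lean control kidneys; points are rats and bars are the mean ± SD (n = 3). The obese points of Nr1d1 and Cry1 separate by drug, as do those of Per2, Tef and Nr1d2, and the lean rosiglitazone points of Per2, Per3, Dbp and Tef spread widely.

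Among the repressors of the loop, Nr1d1 had the lowest adjusted p of the clock genes between obese and lean rats on the control diet. Its signals were 818.5, 858.5 and 934.0 in obese rosiglitazone kidneys and 1394.6, 1634.2 and 1414.8 in obese control kidneys. In lean kidneys they were 826.5, 596.4 and 1444.6 with rosiglitazone and 972.8, 517.4 and 825.4 on the control diet. All 3 obese control rats were above all 3 lean control rats and above all 3 obese rosiglitazone rats, while the lean groups overlapped. On the control diet the obese mean was 1481.2 ± 133 and the lean mean 772 ± 232 (SD, n = 3 each), a log2 change of 0.97 (SE 0.27, 95% interval 0.39 to 1.55), with an adjusted p of 0.0603 in limma. That p ranged from 0.0138 to 0.454 over 24 settings and passed in 5 of them, 2 of which left out lean rosiglitazone 2 (0.0271) or lean rosiglitazone 3 (0.0138). Neither of these rats is in the groups compared, and the change stayed at 0.97 without either. Leaving out each rat of the groups compared gave an adjusted p of 0.0614 to 0.197 in limma. Adjusting for the spike-in class gave a change of 0.82. Within the higher class it was 0.96, from 1 obese rat, and within the lower class 0.87, from 1 lean rat. Over both diets the change was 0.46 (SE 0.19, adjusted p = 0.127 in limma), 0.64 (adjusted p = 0.0123) without lean rosiglitazone 3, 0.24 adjusted for the class and 0.07 within the lower class. In obese rats the drug group averaged 870 ± 58.6 against 1481.2 ± 133 for the same control rats, which both comparisons share (log2 change -0.75, SE 0.27, unadjusted p = 0.015, adjusted p = 0.796 in limma). In lean rats the change with the drug was 0.25 (SE 0.27), and the test of the difference between the body types gave -1.01 (SE 0.38, unadjusted p = 0.02, adjusted p = 0.992 in limma). Ordered by mean, the groups were obese control, lean rosiglitazone (956 ± 439), obese rosiglitazone and lean control. Neighbours in this order overlapped. Obese and lean rosiglitazone rats passed no test, and the other neighbours were not tested against each other. On rosiglitazone the obese to lean change was -0.04 (SE 0.27). It was -0.72 (adjusted p = 0.0462 in limma) within the lower spike-in class, where lean rosiglitazone 3 is the only lean rosiglitazone rat.

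Cry1, which encodes a repressor of CLOCK and BMAL1, ran opposite to Nr1d1 in obese rats. Its signals were 493.3, 480.3 and 399.5 in obese rosiglitazone kidneys, against 213.2, 140.7 and 235.3 in obese control kidneys. Lean rosiglitazone kidneys had 188.0, 563.4 and 158.2, and lean control kidneys had 245.7, 391.6 and 304.2. All obese rosiglitazone rats were above all obese control rats, and the highest value of the 12 was that of lean rosiglitazone 2. Some of its values lie near the filter on dim probe sets. In obese rats the log2 change with the drug was 1.18 (SE 0.36, 95% interval 0.40 to 1.96), with means of 458 ± 50.8 and 196 ± 49.5 (SD, n = 3 each), an unadjusted p of 0.0059 and an adjusted p of 0.611 in limma (0.0656 to 1 over 22 settings). Adjusting for the spike-in class gave 1.32, and the lower class alone 1.25. In lean rats the change was -0.24 (SE 0.36), and the difference between the body types was 1.42 (SE 0.51, unadjusted p = 0.015, adjusted p = 0.992 in limma). Obese rats had 0.78 (SE 0.36, adjusted p = 0.249 in limma) over lean rats on rosiglitazone, against 1.32 (adjusted p = 0.0104) without lean rosiglitazone 2 and 0.46 (adjusted p = 0.549) without lean rosiglitazone 3. Within the lower spike-in class, with 1 lean rat, it was 1.44 (adjusted p = 0.0406 in limma). On the control diet the change was -0.64 (SE 0.36, adjusted p = 0.368 in limma), with all obese rats below all lean rats.

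On the control diet, where Nr1d1 and Cry1 did not overlap between obese and lean rats, the fat marker sums did not either, at 1363 to 1901 in obese and 3313 to 5855 in lean kidneys. The fat marker sums of obese rats did not overlap between the drug (4380 to 5547) and the control diet (1363 to 1901), as Nr1d1 and Cry1 did not. Of that sum, Fabp4 alone read 2776.0 to 4111.0 with the drug and 216.2 to 501.9 on the control diet. Ucp1 did not overlap either, at 79.1 to 219.8 and 4.1 to 32.8, while Cidea, Adipoq, Cfd and Plin1 overlapped. The part of the fat markers in these results was not tested. In obese rats, by drug, 6 of 15 clock probe sets did not overlap, 5 higher and 1 lower with the drug, against 11.9% of all probe sets (5.56% higher and 6.34% lower). The other 4 were Per2, Nr1d2 and 2 probe sets of Tef, with log2 changes of 0.40, 0.13, 0.25 and 0.14 and no unadjusted p under 0.05. In lean rats 0 of 15 did not overlap by drug, against 8.54% of all.

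Per1, Per2 and Per3 encode the proteins that join CRY to close the loop. Per1 had 1081.8, 991.3 and 858.4 in obese rosiglitazone kidneys and 900.1, 661.9 and 916.7 in obese control kidneys. Lean kidneys had 703.6, 756.5 and 464.5 with rosiglitazone and 798.3, 748.5 and 562.2 on the control diet. On rosiglitazone every obese rat was above every lean rat, and on the control diet the groups overlapped. The log2 change between obese and lean rats was 0.62 on rosiglitazone (SE 0.19, adjusted p = 0.0795 in limma; 977 ± 112 against 642 ± 156, SD, n = 3 each) and 0.23 on the control diet (SE 0.19, adjusted p = 0.573). Over both diets it was 0.42 (SE 0.13, 95% interval 0.13 to 0.71) with an adjusted p of 0.0501 in limma, just outside the threshold. That p ranged from 0.00399 to 0.126 over 22 settings and passed in 7, among them those without obese control 2 (0.0335) and without lean rosiglitazone 2 (0.0354). Adjusting for the spike-in class gave a change of 0.64 over both diets (adjusted p = 0.00399) and 0.90 on rosiglitazone (adjusted p = 0.00948), and within the lower class it was 0.75 and 1.04, from 1 lean rat in each group. On rosiglitazone the change was 0.41 (adjusted p = 0.228 in limma) without lean rosiglitazone 3. There the summed markers did not overlap either, at 7419 to 12733 in obese and 2349 to 5670 in lean kidneys for blood. For fat they were 4380 to 5547 in obese and 8896 to 19051 in lean kidneys, and for kidney 62344 to 65688 in obese and 66637 to 73958 in lean kidneys. Their part in the result was not tested. In that comparison 1 of 15 clock probe sets did not overlap, against 23.3% of all probe sets, and on the control diet 2 of 15, against 25.5%.

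Per2 and Per3 had no unadjusted p under 0.05 in any comparison. Per2 had 1417.2, 1495.0 and 1614.0 in obese rosiglitazone kidneys and 1090.8, 1081.0 and 1237.6 in obese control kidneys, which did not overlap. Lean rosiglitazone kidneys had 841.5, 1821.0 and 1656.3, against 1405.0, 1301.4 and 1161.4 in lean control kidneys, so the lowest and the highest rats of the 12 were both in the lean rosiglitazone group. The log2 change with the drug was 0.40 in obese rats (SE 0.21, adjusted p = 0.999 in limma) and 0.09 in lean rats (SE 0.21, adjusted p = 0.997). Per3 had 267.9, 203.7 and 278.7 in obese rosiglitazone kidneys, 191.9, 167.7 and 269.4 in obese control kidneys, 101.5, 310.6 and 302.6 in lean rosiglitazone kidneys and 255.3, 359.8 and 278.6 in lean control kidneys. All groups overlapped, and its changes lay between -0.49 (SE 0.33, obese against lean on the control diet) and 0.25 (SE 0.33, drug in obese rats) in the comparisons of group pairs.

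Dbp, the activator known for a deep daily swing, passed no test between groups. Obese kidneys had 971.2, 1349.6 and 1359.9 with rosiglitazone and 1496.0, 1339.2 and 1597.8 on the control diet. Lean kidneys had 522.9, 1250.4 and 1534.2 with rosiglitazone and 1135.5, 1601.0 and 733.8 on the control diet. The 2 lowest rats were lean rosiglitazone 1 and lean control 3, and the others of those groups overlapped the obese rats. The obese to lean log2 change over both diets was 0.34 (SE 0.24, 95% interval -0.18 to 0.87, adjusted p = 0.393 in limma), and that for the drug over both body types was -0.21 (SE 0.24, interval -0.73 to 0.32). Within the lower spike-in class the obese to lean change was 0.98 on the control diet (0.41 over all rats) and -0.34 on rosiglitazone (0.27 over all rats), from 1 lean rat each. The drug change in lean rats was -0.13 (SE 0.34) but 1.05 within that class, where lean rosiglitazone 3 stands against lean control 3 alone.

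Tef, the second activator of that family, had 1841.8, 1865.5 and 1905.6 in obese rosiglitazone kidneys, against 1599.7, 1448.7 and 1683.8 in obese control kidneys. Lean rosiglitazone kidneys had 1178.6, 2379.5 and 2184.8, against 1878.5, 2243.8 and 1445.6 in lean control kidneys. The obese groups were tight and apart, while lean rats of both diets covered a wider range than all obese rats. Its log2 change with the drug was 0.25 in obese rats (SE 0.22, adjusted p = 0.999 in limma) and 0.00 in lean rats (SE 0.22). Nr1d2, the second REV-ERB, had 2000.2, 2027.9 and 2064.8 in obese rosiglitazone kidneys, against 1984.5, 1639.7 and 1966.7 in obese control kidneys. Lean kidneys had 1608.9, 2186.9 and 2075.6 with rosiglitazone and 2177.0, 2455.5 and 1681.6 on the control diet. Unlike the values of Nr1d1, those of Nr1d2 in obese control rats were not above the lean ones, and the obese to lean change there was -0.16 (SE 0.14, adjusted p = 0.592 in limma).

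Clock encodes the partner of BMAL1, and Bhlhe40 a repressor at E-boxes. Clock had 646.3, 810.0 and 797.4 in obese rosiglitazone kidneys, 704.2, 668.7 and 608.3 in obese control kidneys, 698.0, 520.6 and 585.3 in lean rosiglitazone kidneys and 684.0, 544.2 and 578.2 in lean control kidneys. Its obese to lean log2 change was 0.32 on rosiglitazone (SE 0.14, adjusted p = 0.224 in limma) and 0.23 over both diets (SE 0.10, adjusted p = 0.151), with overlapping groups. Bhlhe40 had 354.4, 606.3 and 461.9 in obese rosiglitazone kidneys, 542.0, 595.8 and 479.4 in obese control kidneys, 635.6, 432.9 and 764.0 in lean rosiglitazone kidneys and 597.4, 658.4 and 457.1 in lean control kidneys. All of its groups overlapped, and its change over both diets was -0.21 (SE 0.15, adjusted p = 0.411 in limma).

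The dimmer probe sets of the same genes did not always follow the brightest. Over deviations from the group means, the 2 brighter probe sets of Nr1d2 correlated at 0.77, and the dimmest, at 120.2 to 234.6, at 0.17 and 0.27 with them. For Tef the brightest correlated at 0.58 with the next, at 277.0 to 472.5, and at 0.13 with the dimmest, at 151.4 to 379.2. The 2 probe sets of Clock that passed correlated at 0.35. The dimmer one had 369.1, 255.9 and 504.6 in lean rosiglitazone kidneys, against 495.6, 410.7 and 493.4 in lean control kidneys.

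**Figure D2:**
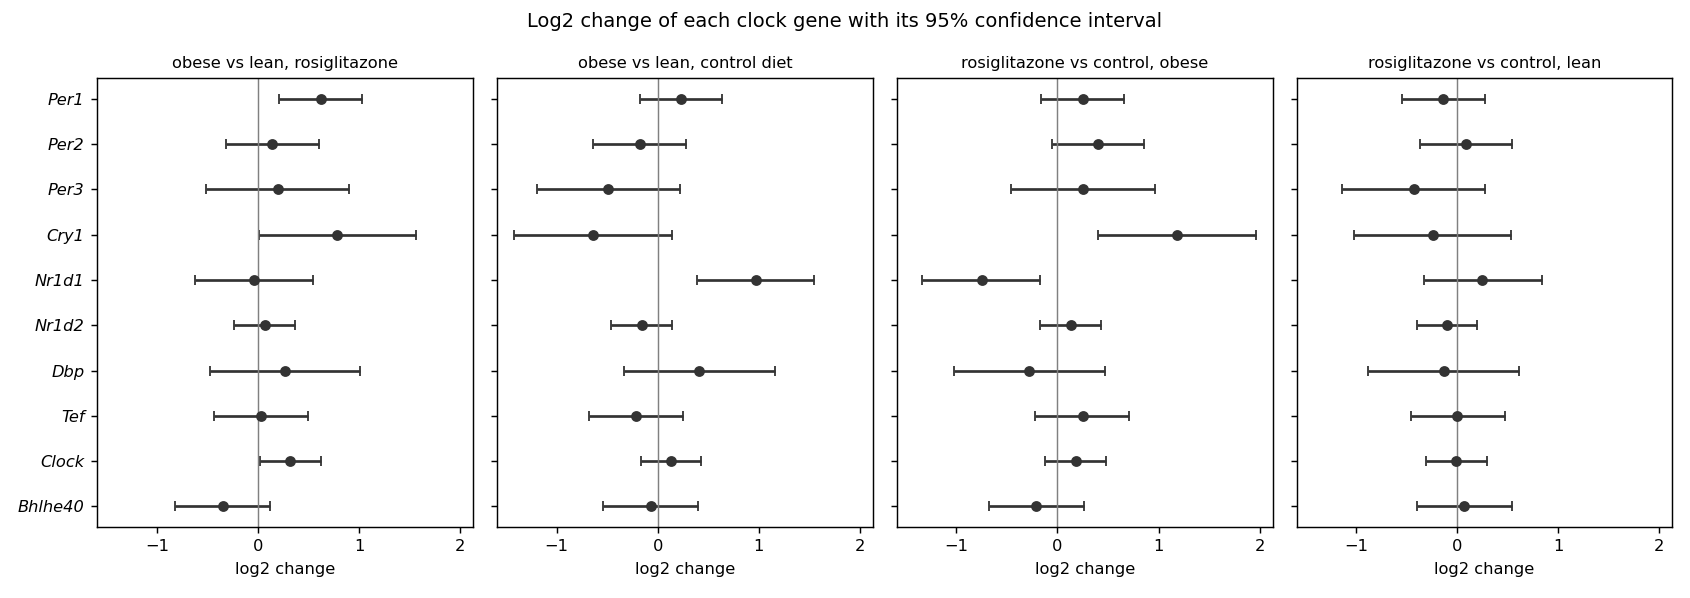
Log2 change of each clock gene with its 95% confidence interval in obese against lean rats on rosiglitazone and on the control diet, and in rosiglitazone against control rats, obese and lean. The intervals that leave out 0 are those of Per1, Cry1 and Clock (obese against lean, rosiglitazone), Nr1d1 (obese against lean, control diet) and Nr1d1 and Cry1 (drug, obese); none passed the adjusted threshold.

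Rats of the same group differed from each other more in several clock genes than in most genes. The pooled SD between rats of a group, on the log2 scale, was 0.54 for Cry1, 0.51 for Dbp, 0.48 for Per3 and 0.40 for Nr1d1, against a median of 0.20 over all tested probe sets. In that order they stood at percentiles 97, 96.6, 95.8 and 91.9 of all probe sets. Per2, Tef and Bhlhe40 had 0.32 each, Per1 0.27, Nr1d2 0.20 and Clock 0.17, the last at percentile 37.2. Without lean rosiglitazone 1 the SD was 0.11 for Per2, 0.25 for Per3, 0.18 for Tef and 0.35 for Dbp, and without lean rosiglitazone 2 that of Cry1 was 0.28.

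The spread lay mostly in lean rats. The SD between lean rats of a group was above that between obese rats in 10 of 10 genes, against 63.3% of all probe sets, and in 13 of the 15 clock probe sets, the exceptions being the dimmest ones of Nr1d2 and Tef. For Tef it was 0.08 in obese and 0.45 in lean rats, for Nr1d1 0.11 and 0.55, for Per2 0.10 and 0.43, and for Dbp 0.21 and 0.69. Over all probe sets the median ratio of lean to obese SD was 1.22. It was 1.2 for Bhlhe40, 1.29 for Clock and 1.48 for Per1, close to that median, and 2.18 (Per3) to 5.65 (Tef) for the other genes. The count was 9 of 10 without lean rosiglitazone 1, against 61.5% of all probe sets, and 7 of 10 without it and lean control 3, against 57%. Dbp then had a lean SD of 0.29. Both were left out after the data were seen, and the difference in spread was not tested.

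**Figure D3:**
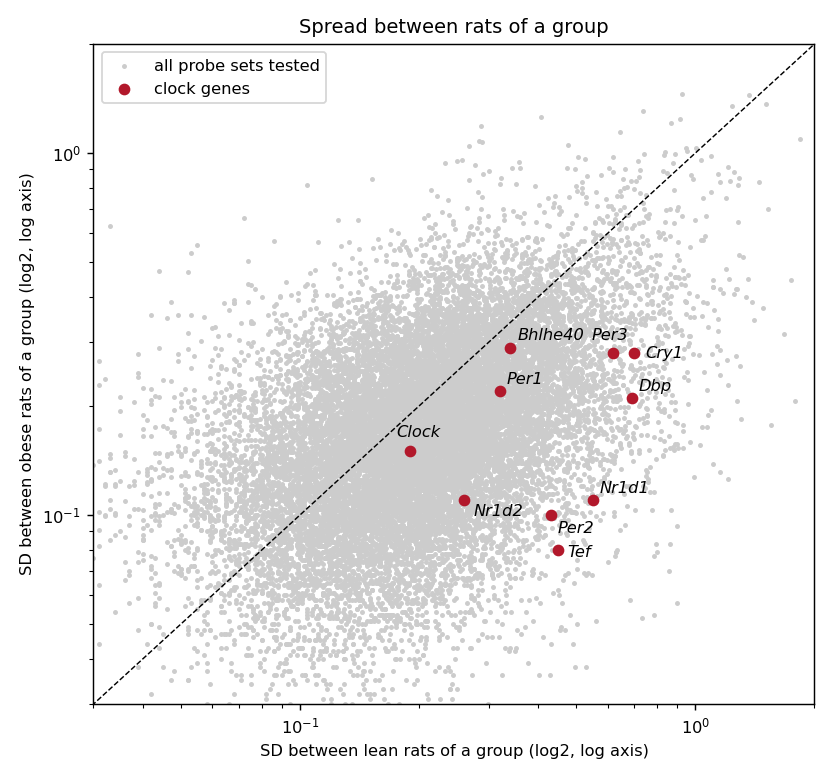
SD of log2 signal between obese rats of a group (vertical, log axis) against that between lean rats of a group (horizontal, log axis), for the 10 clock genes (red) and all 18625 tested probe sets (grey); the dashed line marks equal SD. All 10 genes lie below the line, Tef, Per2 and Nr1d1 far below it.

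Within groups, several clock genes moved together from rat to rat. Deviations from the group means were compared with those of Dbp over the 12 rats for 11 genes, with an exact permutation test of the rats within groups (1296 orders, two-sided, smallest possible p 0.000772). Tef had a Pearson r of 0.94 with Dbp (p = 0.0131, adjusted over the 11 relations 0.0481) and a Spearman rho of 0.89 (exact permutation p = 0.00309, adjusted 0.0297), with the same sign in 11 of 12 rats. For Nr1d2 r was 0.87 (exact permutation p = 0.0116, adjusted 0.0481) and rho 0.84 (p = 0.0054, adjusted 0.0297), also with the same sign in 11 of 12. Bmal1, which encodes the partner of CLOCK, ran the other way with an r of -0.75 (exact permutation p = 0.01, adjusted 0.0481) and a rho of -0.71 (p = 0.0208, adjusted 0.0637), with the same sign in 1 of 12. Per2 at 0.84 (adjusted p = 0.121), Per3 at 0.78 (adjusted p = 0.148) and Nfil3 at -0.63 (adjusted p = 0.192) missed the threshold of the exact permutation test in r. The others had an r of 0.32 for Bhlhe40, 0.25 for Cry1, 0.01 for Nr1d1, -0.08 for Per1 and -0.33 for Clock, with adjusted p from 0.715 to 0.996.

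The relations of Tef and Nr1d2 rest in large part on 2 rats. Lean rosiglitazone 1 was 0.92 below its group mean in Dbp on the log2 scale, and lean control 3 was 0.58 below its own. In the same order, the deviations were -0.63 and -0.33 in Tef, -0.27 and -0.30 in Nr1d2, -0.69 and -0.14 in Per2 and -0.97 and -0.08 in Per3. Bmal1 read 324.1 in lean rosiglitazone 1, with 164.3 and 222.9 in the rest of that group, and 438.1 in lean control 3, with 260.5 and 93.1 in the rest. Without both rats r was 0.56 for Tef and 0.51 for Nr1d2, while that of Bmal1 stayed close at -0.66, each with an adjusted p of 0.707 in the exact permutation test of 144 orders, whose smallest possible p is 0.00694. Neither spike-in class gives a value of its own, since the higher holds 5 arrays and the lower holds 1 rat of each lean group, which has no deviation within the class. With the class removed from the deviations of all 12, r was 0.94 for Tef, 0.95 for Nr1d2 and -0.85 for Bmal1. Lean rosiglitazone 1 is in the higher class and lean control 3 in the lower. The ratio of 3′ to 5′ Gapdh signal, a measure of RNA integrity, was 1.14 and 1.32 in these 2 rats, against 1.07 to 1.32 over all 12, and their summed fat markers were 10293 and 5855. The part of these in the result was not tested.

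**Figure D4:**
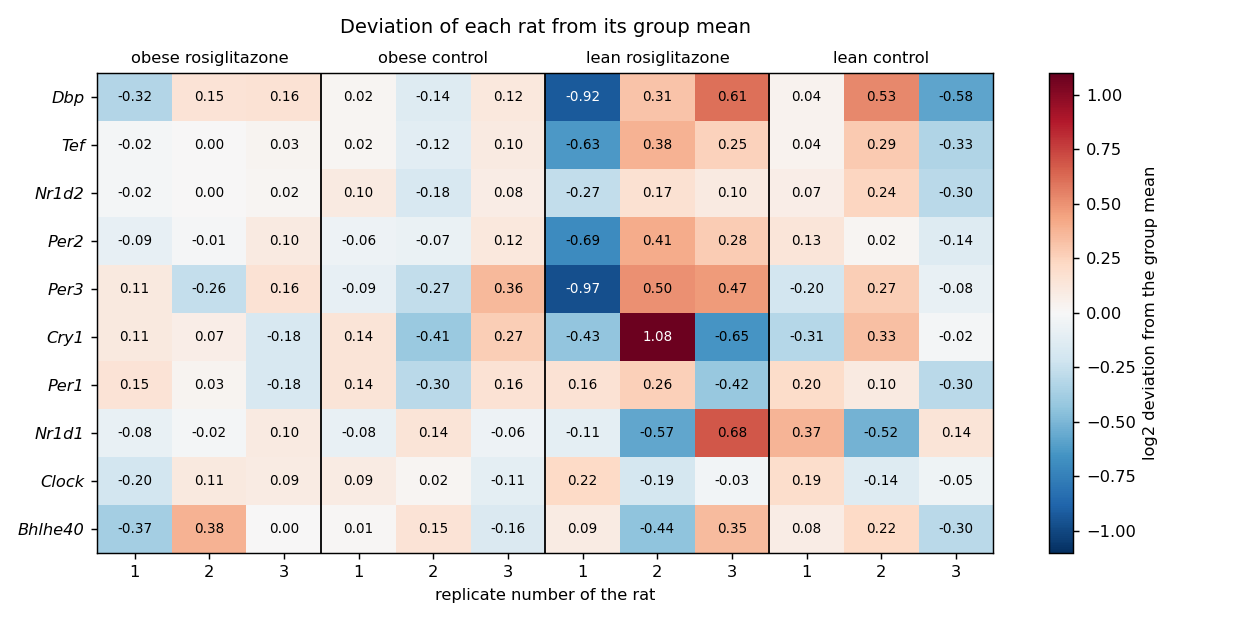
Deviation of the log2 signal of each rat from its group mean, for the 10 clock genes (rows) and the 12 rats (columns, in obese rosiglitazone, obese control, lean rosiglitazone and lean control groups); red is above and blue below the mean. Lean rosiglitazone 1 is low in Dbp, Tef, Per2 and Per3 together, and lean rosiglitazone 2 and 3 are opposite in Cry1 and Nr1d1.

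Nr1d1 had an r of 0.01 with Dbp and ran against Cry1 over the same deviations, the second relation chosen after the data were seen. Its r with Cry1 was -0.83 (exact permutation p = 0.0262, unadjusted, 1 of 45 pairs among the clock genes) and its rho -0.71 (p = 0.0934). Without lean rosiglitazone 2 and 3, which lay farthest out, r was -0.82 (exact permutation p = 0.0139). Lean rosiglitazone 2 was 1.08 above its group mean in Cry1 and 0.57 below it in Nr1d1, and lean rosiglitazone 3 was 0.65 below in Cry1 and 0.68 above in Nr1d1.

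Of all 18624 other probe sets tested, 12 had an r of 0.9 or more with Dbp over these 12 deviations. Among named genes that are no members, Bhlhe41, the paralog of Bhlhe40, was highest at 0.98, followed by Cdk5 at 0.96, Dis3l2 at 0.94, and Rint1, Asb8 and Hirip3 at 0.93 each. The lowest were Hnrnpa3 at -0.96, Fgf9 at -0.94, Fndc3b at -0.91 and Krt12 at -0.90. Bhlhe41 had 496.7, 570.9 and 619.3 in obese rosiglitazone kidneys, 742.9, 709.7 and 743.4 in obese control kidneys, 347.6, 647.9 and 913.5 in lean rosiglitazone kidneys and 628.9, 785.4 and 421.9 in lean control kidneys, and its lowest values were those of the same 2 lean rats. For Per2 the highest were Zfp799 at 0.94, Camk2n1 and Ppie at 0.93 and Slc25a42 at 0.92. These are descriptions over 12 rats that share arrays, with no test.

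**Figure D5:**
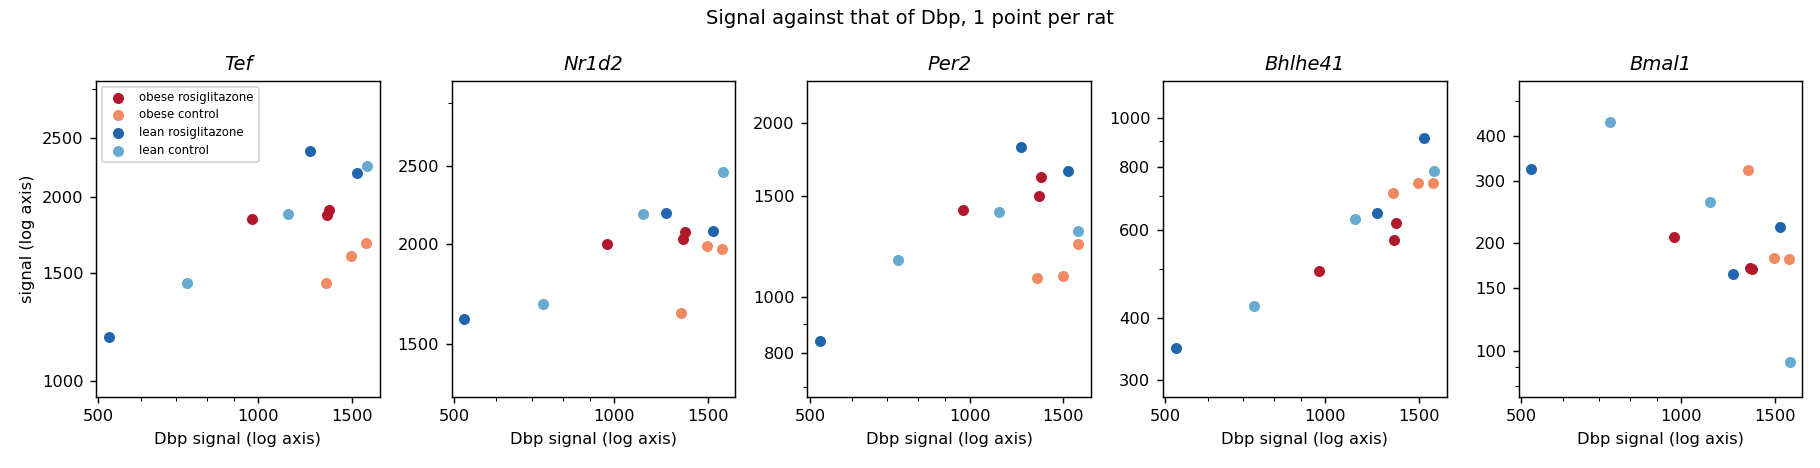
Signal of Tef, Nr1d2, Per2, Bhlhe41 and Bmal1 (vertical, log axis) against that of Dbp (horizontal, log axis), 1 point per rat, coloured by group. The 2 rats with the lowest Dbp signal, 522.9 and 733.8, are low in Tef, Nr1d2 and Bhlhe41 and high in Bmal1.

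Of 21 other clock genes, 13 could be tested, by their brightest probe set. On rosiglitazone 1 of 13 passed, against 5% of all probe sets. It was Btrc, which encodes part of the ubiquitin ligase that acts on PER proteins, at a log2 change of -0.54 in obese against lean rats (SE 0.14, adjusted p = 0.0432 in limma). A second probe set of Btrc had -0.44 (adjusted p = 0.23). Over both diets 2 passed, against 14.3% of all. They were Nampt, the rate-limiting enzyme of NAD salvage, at 0.43 (SE 0.12, adjusted p = 0.031; 0.35 and 0.103 for its second probe set) and Noct, a rhythmic phosphatase, at -0.49 (SE 0.15, adjusted p = 0.0454). Noct had 1027.0, 1083.1 and 1056.6 in obese rosiglitazone kidneys, against 673.9, 495.8 and 555.8 in obese control kidneys, which did not overlap, though the drug change of 0.87 had an adjusted p of 0.323 in limma. The other comparisons called 0 of 13 with limma, against 0% to 4.74% of all probe sets. In each, 1 to 2 had an unadjusted p under 0.05, against 4.31% to 18.9% of all. Hlf, the third PAR bZIP activator, passed by a dimmer probe set, at -0.76 on the control diet (adjusted p = 0.0303 in limma) and -0.49 over both diets (adjusted p = 0.0217). Its brightest had -0.38 (adjusted p = 0.362) and -0.21 (adjusted p = 0.413), and the remaining one -0.42 (adjusted p = 0.271) and -0.23 (adjusted p = 0.306). Bmal1 and Nfil3 passed no test, with changes over both diets of -0.16 (SE 0.29) and -0.09 (SE 0.20), and Npas2, the stand-in for Clock, lay below the filter at 58.5 to 301.4. Over rats, the median r with Dbp was 0.70 for these 13 genes, positive in 10, against -0.02 over all other probe sets.

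Of 16 kidney genes known to be under clock control that could be tested, 7 were called between obese and lean rats over both diets, 5 higher and 2 lower, against 14.3% of all probe sets. The 4 of smallest p were Sgk1, the kinase that raises sodium uptake, at a log2 change of 0.73 (SE 0.10, adjusted p = 0.000324 in limma), Avpr2, the vasopressin receptor, at 0.39 (adjusted p = 0.00376), Alas1, the first enzyme of haem synthesis, at -0.72 (adjusted p = 0.00673), and Aqp4, a water channel, at 0.62 (adjusted p = 0.00725). Second probe sets had 0.27 for Aqp4 (adjusted p = 0.0636) and 0.17 for Avpr2 (adjusted p = 0.587). On rosiglitazone 2 of 16 were called (5% of all probe sets), Sgk1 at 1.06 and Aqp4 at 0.77. On the control diet 2 were (4.74% of all), Alas1 at -0.91 and Avpr2 at 0.42, with 0.36 (adjusted p = 0.492) for the second probe set of Avpr2. The median change of the 16 over both diets was 0.05, against 0.03 over all. The drug called 0 of 16 in obese rats (0.0698% of all probe sets) and 0 in lean rats (0.00537%) with limma. Unadjusted p was under 0.05 for 3 in obese rats (4.92% of all) and 0 in lean rats (4.79%). The list was chosen with earlier results of these data known, so the counts are no test of kidney genes under clock control. Whether these counts differ from those of the clock genes was not tested.

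Glucocorticoids and body temperature also set daily rhythms, so genes that respond to them were listed as well. Of 11 glucocorticoid responsive genes tested, 2 were called over both diets, against 14.3% of all probe sets. They were Sgk1 and Sult1a1, a sulfotransferase, the last at 0.93 (SE 0.12, adjusted p = 0.000312 in limma), and the median change was -0.02. On rosiglitazone the same 2 were called (5% of all), and 7 had an unadjusted p under 0.05 in limma (19.7%). On the control diet 1 was called (4.74%), and 4 had an unadjusted p under 0.05 (18.9%). The drug called 0 of 11 in obese rats (0.0698% of all) and 0 in lean rats (0.00537%). Unadjusted p was under 0.05 for 4 and 0 of them (4.92% and 4.79% of all). This list too was chosen with earlier results known, so the counts are no test of it. Fkbp5 and Tsc22d3, which are known as close markers of glucocorticoid action, were picked after their values were seen. Over both diets they had 0.44 (SE 0.21, adjusted p = 0.194 in limma) and 0.31 (SE 0.17, adjusted p = 0.259), with 0.61 (adjusted p = 0.0621) for a second probe set of Fkbp5. On rosiglitazone the obese to lean changes were 0.67 (adjusted p = 0.232 in limma) and 0.75 (adjusted p = 0.0904), and on the control diet 0.21 and -0.14. With the drug they changed by 0.36 and 0.56 (adjusted p = 0.962) in obese rats and by -0.10 and -0.33 in lean rats. Both were lowest of the 12 in lean rosiglitazone 1, at 447.8 for Fkbp5 and 1314.9 for Tsc22d3, as was Sult1a1 at 1202.4. Other listed genes went the other way in that rat. Pdk4 at 641.7, Dusp1 at 4664.0 and Errfi1 at 6630.2 were highest of the 12 there. Of 5 temperature responsive genes tested, 1 was called over both diets, against 14.3% of all probe sets. Rbm3, which encodes a cold-induced RNA binding protein, had 0.66 (SE 0.12, adjusted p = 0.00222). Median r with Dbp was -0.30 over the glucocorticoid responsive genes and 0.22 over the temperature responsive genes.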

How the data were processed

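Per the submitters' processing notes, the authors derived a signal intensity for each probe set with MAS5. No version or genome build is given in the sources used here. Per the labels' protocols, RNA came from a Trizol extraction and carried biotin. The deposited intensities have trimmed means of 500.12 to 500.15 per array, so no further scaling was done, and their median per array is 203.98 to 238.63. The 57 control probe sets were left out. Of the 31042 left, 20826 carried 1 symbol in the platform annotation, 436 several and 9780 none, and 20758 gene IDs were found in the GRCr8 gene table, with 0 symbols updated.

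Signals were turned to log2(signal + 16). Probe sets with a mean under the 40th percentile (log2 7.32) were left out, which kept 18625. limma 3.58.1 in R 4.3.3 fitted 4 group means to all 12 arrays with trend and robust moderation, and p-values were adjusted by Benjamini-Hochberg over the 18625 in each of 7 comparisons. SDs are over linear signals unless log2 is stated. The fit was tested on simulated data. The cre classes were defined from the data. The clock genes, marker lists and gene lists were chosen with earlier results of these data known. The text names all clock genes, up to 4 called members of smallest p per list and comparison, Bmal1, Npas2 and Nfil3, and the genes of highest and lowest r with Dbp or highest r with Per2. Hlf, Fkbp5, Tsc22d3 and the values of Noct by rat were named after their values were seen. The number of arrays limits the precision. Alternatives covered the offset, filter, scaling, moderation, arrays used, replicate number and spike-in class.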

Additional observations from a re-analysis of the deposited data

How the results depend on the processing

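Over 1586 alternative fits of the 10 genes in 7 comparisons, 1485 kept direction and side of the threshold, 19 passed it, 80 turned sign with no unadjusted p under 0.05, and 2 turned sign with one. Those 2 were Dbp within the lower spike-in class, 1.05 for the drug in lean rats (main -0.13) and 0.39 over both body types (main -0.21), where each lean group has 1 rat. The count of clock probe sets called was 0 in every main comparison. For obese against lean on the control diet it was 1 of 11 (Nr1d1) with a filter at the 60th percentile, where 913 of all 12417 probe sets were called. It was 1 of 15 (Nr1d1) with only the groups compared (782 of all 18625). The replicate block also gave 1 (961 of all, Nr1d1 adjusted p = 0.0481 in limma), and leaving out each rat gave 0 to 1 (325 to 1003 of all). On rosiglitazone it was 1 (Per1) with the class as a covariate (692 of all 18625) and 0 to 1 leaving out each rat (474 to 1033 of all). For the drug in obese rats it was 1 (Nr1d1, adjusted p = 0.0391 in limma) with only the groups compared (31 of all 18625). Over both diets it was 1 (Per1) with an offset of 64 (2697 of all 18625) or a filter at the 60th percentile (2447 of all 12417). It was also 1 (Per1) with the replicate block (2678 of all, adjusted p = 0.0329 in limma) or the class as a covariate (2000 of all). Leaving out each rat gave 0 to 1. Counts of clock probe sets within the lower class are not given, since each lean group has 1 rat there. Replicate numbers share no stated source, and same-numbered rats correlated at -0.179 to 0.182, over 0.1 in 4 of 18 pairs. The block moved the calls over all probe sets to 961 (main 882) on the control diet. Without the 2 rats farthest out, Dbp correlated at 0.56 with Tef, 0.51 with Nr1d2 and -0.66 with Bmal1. Leaving out each rat, the SD ranged from 0.11 to 0.34 for Per2, 0.25 to 0.51 for Per3, 0.18 to 0.34 for Tef and 0.28 to 0.57 for Cry1. Calls over all probe sets ranged from 52 to 1003 on the control diet, 474 to 1033 on rosiglitazone, 1147 to 2705 over both diets (main 2665), 0 to 23 for the drug in lean rats, 0 to 34 in obese rats, 3 to 20 over both body types and 0 to 6 for the interaction, and on the control diet 34.7% were higher with median centring (main 45.5%). The cause of these shifts was not tested, beyond fewer arrays or probe sets in the fit where stated.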
